A study of Rattus norvegicus with 6 samples.

Results

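Caveolae are small flask-shaped pits of the plasma membrane, and 8 genes that build them are described here: the caveolins Cav1, Cav2 and Cav3, the cavins Cavin1, Cavin2 and Cavin3, and the coat partners Ehd2 and Pacsin2. Each was found by its gene name among the 33589 rows of a table of FPKM (fragments per kilobase of gene length, relative to the size of the library), and every name had a single row, whose span no other gene of the table overlapped. Of the 8, 6 averaged at least 1 FPKM and could be tested, while Cav3 and Cavin2 lay below that level. The genes were chosen by name with values of these same libraries for stiff against soft gel already known, so the number of them that passed a test is given as a description of the list.

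PolyA RNA was read from rat mesenchymal stem cells (MSCs) of bone marrow, stromal cells with the capacity to become osteoblasts, chondrocytes or adipocytes, after 48 h in a hydrogel named SA in the labels. The gel was stiff, at 18 kPa, in 3 libraries and soft, at 2 kPa, in the other 3. The design text speaks of quadruplicates, and 3 libraries per group were analysed here. No strain, sex or age of the animals is given in the sources used here, nor whether replicates are separate cultures or animals, so the p-values reflect the spread among these libraries and that spread may be technical.

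A caveola forms when caveolins, inserted as hairpins in the inner leaflet, are joined by a coat of cavins, with Cav1 and Cavin1 both needed for the pit in cells other than striated muscle. EHD2, an ATPase, rings the neck and holds the pit at the surface, and PACSIN2, an F-BAR protein, shapes and bends the membrane there. Caveolae are abundant in fibroblasts, adipocytes, endothelium and muscle, and they flatten when membrane tension rises, which releases cavins from the coat.

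The sequences below are the windows around the annotated starts of Cav1 and Cavin1, the pair of genes that rose in stiff gel, and of Cav2, the neighbour of Cav1, from 250 bases before the start to 50 bases after it. They are RefSeq sequences of assembly GRCr8, written 5′ to 3′ along the gene. Capitals mark the SP1 motif GGGCGG on either strand and, in Cav2, also the AP-1 motif TGANTCA.
Cav1, first start (chr4:46606288-46606587, + strand): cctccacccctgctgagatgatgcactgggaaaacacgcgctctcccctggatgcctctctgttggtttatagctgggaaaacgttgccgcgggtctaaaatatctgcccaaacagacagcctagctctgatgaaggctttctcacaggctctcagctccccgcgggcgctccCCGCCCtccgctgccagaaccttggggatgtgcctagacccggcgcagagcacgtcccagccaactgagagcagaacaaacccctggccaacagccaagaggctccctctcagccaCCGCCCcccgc
Cav1, second start (chr4:46607722-46608021, + strand): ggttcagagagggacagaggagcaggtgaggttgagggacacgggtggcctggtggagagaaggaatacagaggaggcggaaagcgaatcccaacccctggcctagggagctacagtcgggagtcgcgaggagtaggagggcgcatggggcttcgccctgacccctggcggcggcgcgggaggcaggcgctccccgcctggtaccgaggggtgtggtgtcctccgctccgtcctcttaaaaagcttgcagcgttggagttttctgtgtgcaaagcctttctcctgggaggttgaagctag
Cavin1 (chr10:86396334-86396633, - strand): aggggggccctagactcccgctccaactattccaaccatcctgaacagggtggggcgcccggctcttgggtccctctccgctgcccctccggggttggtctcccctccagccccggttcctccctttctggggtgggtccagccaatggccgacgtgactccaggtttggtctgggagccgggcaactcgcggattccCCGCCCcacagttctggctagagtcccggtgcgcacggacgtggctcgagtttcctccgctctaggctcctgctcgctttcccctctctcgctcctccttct
Cav2 (chr4:46582431-46582730, + strand): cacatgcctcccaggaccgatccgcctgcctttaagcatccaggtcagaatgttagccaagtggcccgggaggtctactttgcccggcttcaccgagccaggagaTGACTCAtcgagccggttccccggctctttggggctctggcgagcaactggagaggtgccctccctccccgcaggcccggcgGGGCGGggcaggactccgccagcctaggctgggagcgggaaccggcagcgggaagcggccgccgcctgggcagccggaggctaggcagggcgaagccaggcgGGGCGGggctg
Windows were found for 7 of the 8 genes by symbol; Cavin3 had no entry. The first window of Cav1 held the SP1 motif at 77 bases before the start and at base 40 after it, that of Cavin1 held it at 52 bases before the start, and the second window of Cav1 held none. Cav2 had it at 63 bases before and at base 40 after the start, with an AP-1 motif at 145 bases before, and Ehd2 (sequence not shown) at 73 bases before. Over all 33469 windows of that length 33.1% held the SP1 motif and 7.33% the AP-1 motif. The SP1 motif is made of G and C alone. The windows of these genes that held it were 61.7% to 70.3% G or C, and the median over all windows was 51.7%. The second window of Cav1, without it, had 63%. A TEAD motif, GGAATG on either strand, was found in the windows of Cav3 and Cavin2 and in none of the other windows of the 7 genes, against 14.2% of all windows. No window of the 7 genes held a CArG box, the site of SRF, which 1.64% of all windows held. These are matches of letters in short windows and say nothing of binding.

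Both core coat genes rose in stiff gel. Cav1 averaged 74.9 ± 4.62 FPKM in stiff and 53.1 ± 5.33 FPKM in soft gel (SD, n = 3 each), 1.41-fold, and Cavin1 103.4 ± 1.84 FPKM in stiff and 78.3 ± 2.05 FPKM in soft gel, 1.32-fold. Cavin3, Cav2 and Ehd2 had higher means and Pacsin2 a lower mean in stiff gel without passing the test. The test was limma on log2(FPKM + 1) across the 12713 genes that averaged 1 FPKM or more, two-sided, with Benjamini-Hochberg adjustment at 0.05, and 2 of the 6 members tested passed, both higher. That count was 1 without soft replicate 1 and 0 without any other single library, and the calls over all genes fell to 27 to 159, against 182, when a library was left out. Over all tested genes 1.43% passed, 1.01% as higher (128 genes) and 0.425% as lower (54 genes). When each library was scaled to the same FPKM sum the split was 88 higher and 68 lower, and after quantile normalization 103 and 68. Fewer cells of one kind and less RNA per cell cannot be told apart in such bulk libraries.

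**Figure D1:**
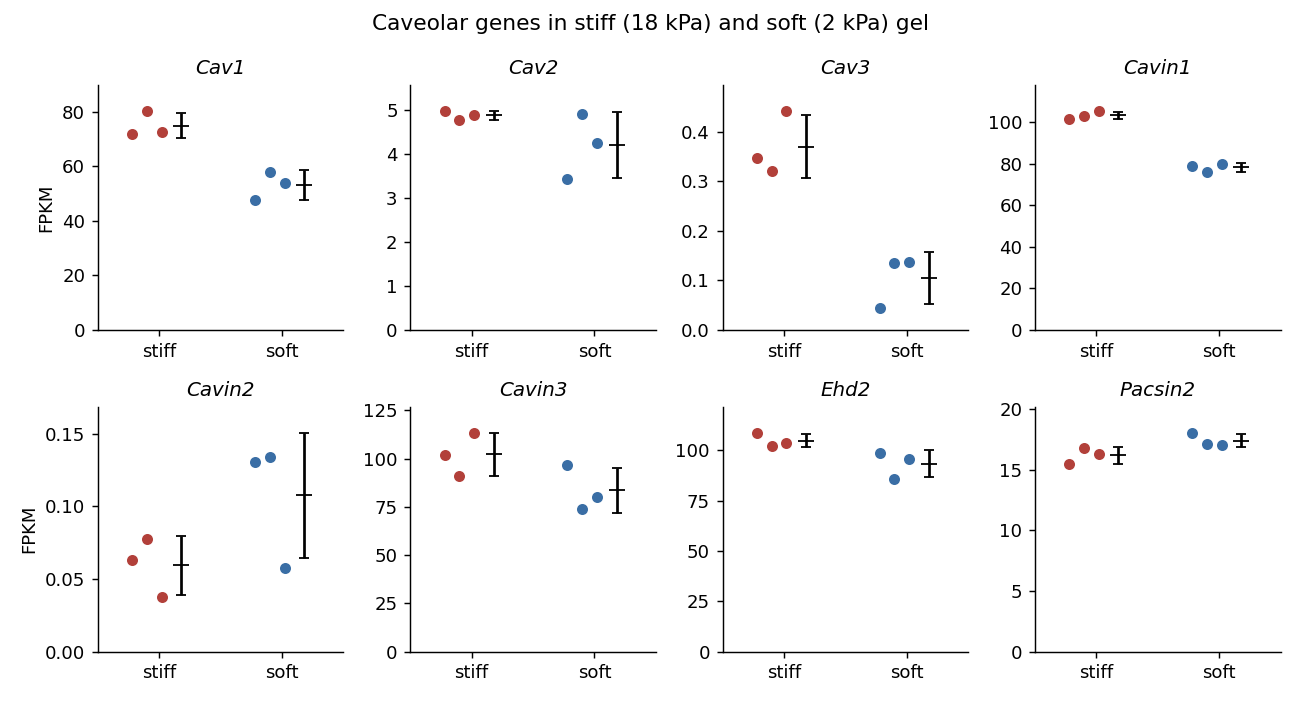
FPKM of the 8 caveolar genes in each library, stiff gel (red) left of soft gel (blue), with the group mean and SD (n = 3) as a black bar beside the points. Each panel has its own scale from 0. The stiff libraries lie above the soft ones for Cav1, Cav3, Cavin1 and Ehd2 and below them for Pacsin2.

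The libraries held between 14966354 and 16711527 reads, recovered from the FPKM, and 3 reads on a gene of 1 kb came to between 0.179 and 0.201 FPKM. Soft replicate 1 stood apart on the first principal component (30.2% of the variance), at -20.9 against -8.22 and -7.98 for the other soft libraries and 10.3 to 14.2 for the stiff ones. Summed FPKM was 467372 to 478304 in stiff and 452787 to 457306 in soft libraries. All 8 stromal markers were above 1 FPKM and none of them passed the test. Their summed level was 4607 to 5830 FPKM in stiff and 4244 to 5734 FPKM in soft libraries. Col1a1 made up most of that sum, at 3579.3 ± 314 FPKM in stiff and 3061.5 ± 373 FPKM in soft gel. Col1a2, also in the sum, varied widely within both groups. It was at 929, 368 and 785 FPKM in stiff replicates 1 to 3, against 1285, 548 and 574 FPKM in soft replicates. Every stiff library was above every soft one for Thy1 and below for Pdgfrb, and the groups overlapped for the other stromal markers. Macrophage and leukocyte markers were also present: of 9 measured, Adgre1 was higher and Cd68 and Cd53 lower in stiff gel, and their sum was 306.6 to 335.6 FPKM in stiff and 356.8 to 363.9 FPKM in soft libraries. Of 5 contractile markers tested 3 were higher, Acta2, Tagln and Cnn1, and Myh11 and Des did not pass. Among all tested genes 1.01% passed as higher and 0.425% as lower. The sum of the contractile list was 498.4 to 556 FPKM in stiff and 224.4 to 259.2 FPKM in soft libraries. Tagln made up most of that sum, at 384.7 ± 21.7 FPKM in stiff and 182.5 ± 14.8 FPKM in soft gel. Lyz2 made up the largest part of the macrophage sum, at 119.4 ± 8.38 FPKM in stiff and 149 ± 3.51 FPKM in soft gel. It did not pass (limma adjusted p = 0.0606). Adgre1 was at 84.9 FPKM in stiff and 69.0 FPKM in soft gel, and 3 of the 9 had a fold change above 0. The contractile and macrophage sums differed between the groups without overlap, and their part in the results on Cav1 and Cavin1 was not tested.

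Cav1 encodes the main caveolin of non-muscle cells. Its level was 72.0, 80.2 and 72.4 FPKM in stiff replicates 1 to 3, against 47.4, 58.0 and 53.9 FPKM in soft replicates 1 to 3. The lowest stiff library was above the highest soft one, and soft replicate 1 was the lowest of all. The reads behind these levels numbered 2742 to 3315 per stiff library and 2037 to 2431 per soft library. The log2 fold change was 0.49 (SE 0.0843; 95% interval 0.29 to 0.69; limma adjusted p = 0.0443), close to the threshold. The call was lost at equal FPKM sums (log2 fold change 0.44, adjusted p = 0.063), after quantile normalization (0.45, 0.0791), without a level filter (0.49, 0.104) and without the variance trend (0.49, 0.0854). It was also lost when any one of the 6 libraries was left out, with log2 fold changes of 0.41 to 0.55 and adjusted p-values of 0.0533 to 0.155. The gene, ENSRNOG00000056836, lies on the + strand of chromosome 4 from 44597123 to 44630200 (coordinates of the deposited table, with no build named in it).

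Cav2 makes mixed oligomers with Cav1 and depends on it to reach the cell surface. It was at 4.97, 4.78 and 4.88 FPKM in stiff replicates 1 to 3, against 3.43, 4.91 and 4.25 FPKM in soft replicates 1 to 3. Soft replicate 2 lay among the stiff libraries, so the groups overlapped. The spread was 1.95% of the mean in stiff and 17.7% in soft gel. The log2 fold change was 0.19 (95% interval -0.08 to 0.46; limma adjusted p = 0.490). It was 0.08 without soft replicate 1 and 0.28 without soft replicate 2, neither past the threshold (limma adjusted p = 0.736 and 0.340). Cav2 (ENSRNOG00000057713) ends 16484 bases before Cav1 starts, on the same strand of chromosome 4, from 44573264 to 44580638. Beyond the pair lie Tes, which encodes the LIM protein testin, 212858 bases from Cav2, with 28.1 FPKM in stiff and 26.9 FPKM in soft gel, and Met, the hepatocyte growth factor receptor gene, 144540 bases from Cav1, with 3.63 FPKM in stiff and 4.63 FPKM in soft gel.

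Cav3 (ENSRNOG00000005798; chromosome 4, 144382945 to 144398917), the caveolin of striated muscle, was close to the limit of detection. It had 7, 7 and 10 reads in stiff replicates 1 to 3, against 1, 3 and 3 reads in soft replicates 1 to 3, which is 0.347, 0.320 and 0.442 FPKM in stiff and 0.0440, 0.135 and 0.136 FPKM in soft libraries. All 3 stiff libraries were above the soft ones. Summed over libraries the counts were 24 reads in stiff and 7 in soft gel, a ratio per read of 3.51 with an exact Poisson 95% interval of 1.47 to 9.64 that covers counting error only. With no level filter limma gave an adjusted p of 0.132 (log2 fold change 0.31). Of 7 measured striated muscle markers, Myod1 and Myog were at 0 in all 6 libraries. For Des, Myh3 and Ckm the groups overlapped, the last 2 on 0 to 2 reads per library. Tnnt2 and Actn2, which encode muscle sarcomere proteins, had every stiff library above every soft one on few reads. Of all tested genes 11.7% were parted upwards in this way, and no such share was computed for genes below the filter. Tnnt2 had 4, 4 and 6 reads in stiff replicates 1 to 3, against 1, 3 and 0 reads in soft replicates 1 to 3, and Actn2 had 3, 5 and 3 reads in stiff, against 2, 0 and 2 reads in soft replicates. The sum of the list, mostly Des, was 1.40 to 2.34 FPKM in stiff and 1.02 to 1.53 FPKM in soft libraries, ranges that overlapped. The part of muscle genes in the values of Cav3 was not tested.

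Cavin1, formerly called Ptrf, is the coat protein without which caveolae do not form. It was at 101.9, 102.9 and 105.4 FPKM in stiff replicates 1 to 3, against 79.2, 76.0 and 79.7 FPKM in soft replicates 1 to 3. Both groups were tight, with an SD of 1.78% of the mean in stiff and 2.61% in soft gel, and they lay far apart. The log2 fold change was 0.40 (SE 0.0470; 95% interval 0.29 to 0.51; limma adjusted p = 0.0129), on 4864 to 5658 reads per stiff library and 3989 to 4263 per soft library. Cavin1 passed under all 10 alternatives of scaling, filter, pseudocount and model, with log2 fold changes of 0.34 to 0.40. It also passed without soft replicate 1 (adjusted p = 0.0212), and it missed the threshold when any of the other 5 libraries was left out (adjusted p of 0.0616 to 0.0815, log2 fold changes of 0.38 to 0.41). The gene, ENSRNOG00000019778, lies on the - strand of chromosome 10 from 88860733 to 88874528.

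Cavin3, also known as Prkcdbp, binds protein kinase C delta and joins the coat through Cavin1. Its gene (ENSRNOG00000017914) lies on chromosome 1 from 170317113 to 170318935. Its level was 102.0, 91.1 and 113.3 FPKM in stiff replicates 1 to 3, against 96.5, 74.0 and 80.2 FPKM in soft replicates 1 to 3. Soft replicate 1 lay between the stiff libraries, and the SD was 10.9% of the mean in stiff and 13.9% in soft gel. The log2 fold change was 0.29 (95% interval 0.02 to 0.56; unadjusted p = 0.0376, limma adjusted p = 0.293). With array weights, which give libraries that vary more from their group a smaller weight, Cavin3 passed (log2 fold change 0.36, adjusted p = 0.0466). That setting called 685 genes over all, against 182 as reported. It was the only 1 of the 10 alternatives in which Cavin3 passed, and Cavin3 passed in 0 of the 6 fits that left out 1 library.

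Cavin2 (ENSRNOG00000025895; chromosome 9, 55243255 to 55256340), formerly Sdpr, bends membranes and is known for its part in the caveolae of some endothelia. Its reads numbered 3, 4 and 2 in stiff replicates 1 to 3, against 7, 7 and 3 in soft replicates 1 to 3, or 0.0375 to 0.0776 FPKM in stiff and 0.0578 to 0.134 FPKM in soft gel. The groups overlapped. The 9 reads in stiff and 17 in soft gel gave a ratio per read of 0.542 with an exact Poisson 95% interval of 0.213 to 1.28. That interval covers counting error only and includes 1, so no difference was detected on these few reads. Endothelial markers were low, with 6 of 7 measured under 1 FPKM. Esam, which passed the filter, was at 2.71 ± 0.455 FPKM in stiff and 3.39 ± 0.404 FPKM in soft gel (limma adjusted p = 0.404), and Tie1 at 0.628 ± 0.0440 FPKM in stiff and 0.914 ± 0.0993 FPKM in soft gel, with every stiff library below the soft ones. The defining genes Cdh5 and Kdr were near 0. Cdh5 was at 0.0102 FPKM in stiff and 0.0101 FPKM in soft gel, Kdr at 0.0068 FPKM in stiff and 0.0194 FPKM in soft gel, and the list's sum was 3.45 to 4.29 FPKM in stiff and 4.28 to 5.28 FPKM in soft libraries. The adipocyte markers, of which Lep was at 0 and Adipoq at 0.145 FPKM in stiff and 0.160 FPKM in soft gel, summed to 31.9 to 35.6 FPKM in stiff and 35.55 to 38.99 FPKM in soft libraries, of which Fabp4 made up 31.6 FPKM in stiff and 34.5 FPKM in soft gel on average.

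Ehd2 (ENSRNOG00000011346; chromosome 1, 77847600 to 77865870) was the most abundant of the 8 per length when all 6 libraries were averaged, at 99.1 FPKM. It was at 108.6, 102.0 and 103.8 FPKM in stiff replicates 1 to 3, against 98.8, 85.8 and 95.5 FPKM in soft replicates 1 to 3. The stiff libraries were all above the soft ones by a small margin. The log2 fold change was 0.17 (95% interval 0.01 to 0.32; unadjusted p = 0.0357, limma adjusted p = 0.289). It was 0.10 after quantile normalization and 0.11 without soft replicate 2, with unadjusted limma p-values of 0.14 and 0.12. Ehd2 passed under none of the 10 alternatives and in none of the 6 fits that left out 1 library.

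Pacsin2 (ENSRNOG00000009756; chromosome 7, 124223633 to 124317379) was the only tested member with a lower mean in stiff gel. It was at 15.4, 16.8 and 16.3 FPKM in stiff replicates 1 to 3, against 18.0, 17.1 and 17.0 FPKM in soft replicates 1 to 3. The groups did not overlap, and the gap between the closest libraries was smaller than the SD of either group. The log2 fold change was -0.10 (95% interval -0.24 to 0.04; limma adjusted p = 0.494). RefSeq lists a pseudogene, Pacsin2-ps1, on chromosome X, and whether reads were shared with it was not tested. Among the 6 tested members 3 thus had all stiff libraries above the soft ones and 1 all below. Over all tested genes 11.7% were parted upwards in this way and 10.9% downwards.

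**Figure D2:**
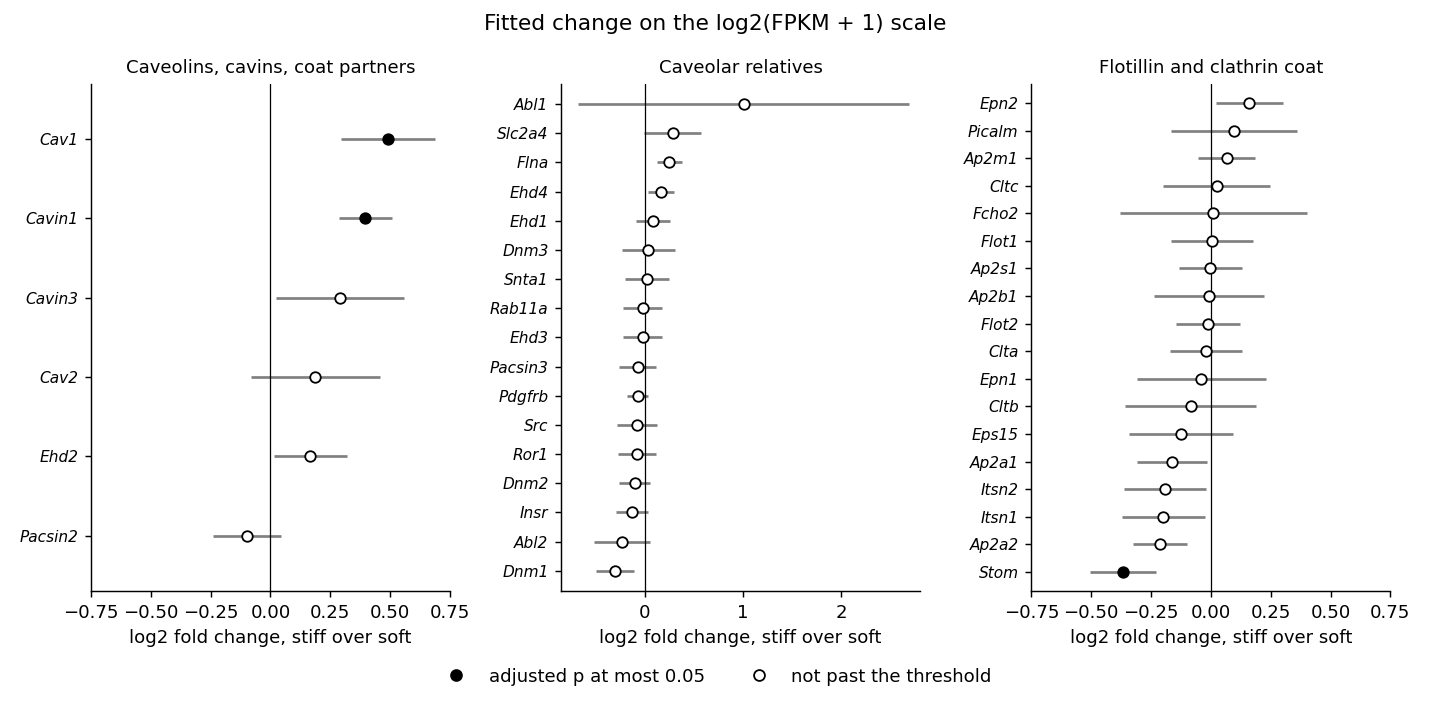
Log2 fold change of stiff over soft gel for the tested members (left), relatives (middle) and flotillin and clathrin coat genes (right), with 95% intervals from limma (n = 3 per group); the middle panel has a wider axis. Filled points passed an adjusted p of 0.05, namely Cav1, Cavin1 and Stom.

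Averaged over the 6 libraries, the levels per length ran from Ehd2 (99.1 FPKM) through Cavin3 (92.9), Cavin1 (90.8), Cav1 (64.0), Pacsin2 (16.8) and Cav2 (4.53) to Cav3 (0.237) and Cavin2 (0.0835). The first 3 differ by less than the SD of Cavin3 within a group (11.1 FPKM in stiff and 11.6 FPKM in soft gel), whereas Cav1 was below Cavin1 in every library. The 8 genes together came to 398.2 to 416.6 FPKM in stiff and 316.1 to 343.6 FPKM in soft libraries.

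Ratios of FPKM within a library do not depend on how that library was scaled, and 6 ratios were computed. Stiff libraries held less Cav2 per Cav1, at 0.0690, 0.0596 and 0.0673, against 0.0722, 0.0846 and 0.0788 in soft libraries. The groups did not overlap (difference of mean log2 ratio -0.27, exact two-sided permutation p = 0.1, which is the smallest that 3 against 3 libraries allow, and 0.3 adjusted over the 6 ratios). Pacsin2 per Ehd2 was 0.142, 0.165 and 0.157 in stiff libraries, against 0.182, 0.199 and 0.178 in soft libraries (-0.27, exact permutation p = 0.1, 0.3 adjusted). Cavin1 per Cav1 averaged 1.39 ± 0.0902 in stiff and 1.49 ± 0.180 in soft gel (SD, n = 3 each; -0.10, exact permutation p = 0.4), with overlapping groups. Ehd2 per Cav1 averaged 1.41 ± 0.121 in stiff and 1.78 ± 0.302 in soft gel (-0.33, exact permutation p = 0.2), and Cavin3 per Cavin1 0.987 ± 0.0955 in stiff and 1.07 ± 0.132 in soft gel (-0.11, exact permutation p = 0.5). Cavin2 per Cavin1 rests on 2 to 7 reads of Cavin2 per library and averaged 0.000577 in stiff and 0.00138 in soft gel (exact permutation p = 0.2). Adjusted over the 6 ratios, these last 4 had exact permutation p-values of 0.3 to 0.5, and the design cannot reach a p of 0.05 for any ratio. Without soft replicate 1 the difference in log2 ratio was -0.0089 for Cavin1 per Cav1, -0.0089 for Cavin3 per Cavin1 and -0.21 for Ehd2 per Cav1. Without stiff replicate 2 the first was -0.04 and the second -0.03, without soft replicate 2 they were -0.18 and -0.17, and without stiff replicate 3 the second was -0.17.

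**Figure D3:**
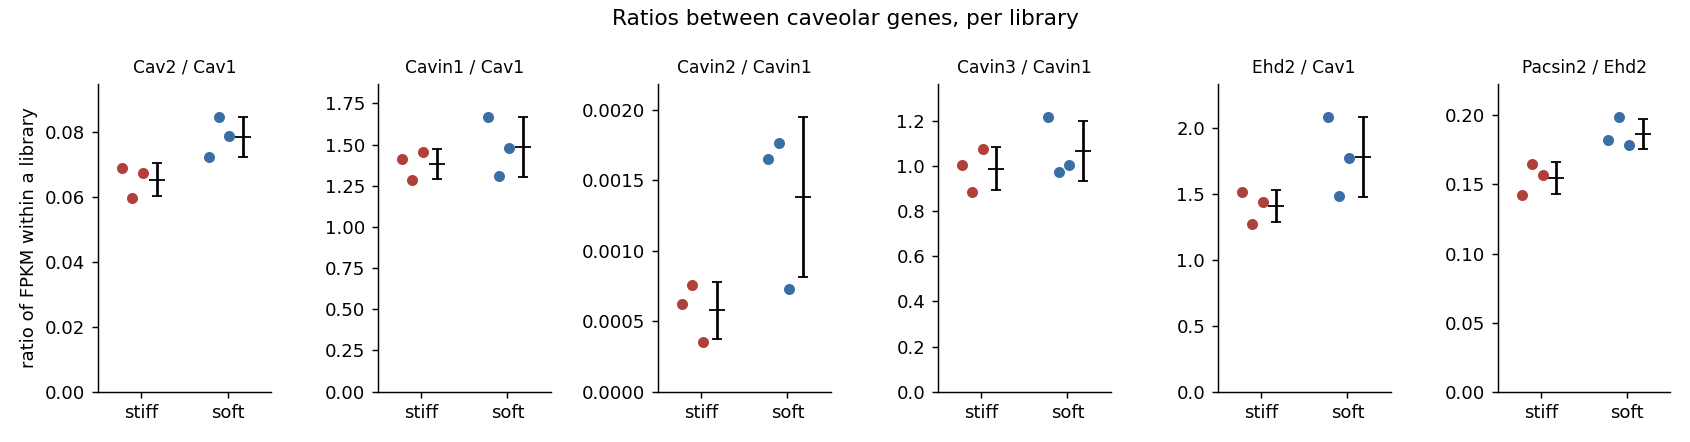
Ratio of FPKM between 2 caveolar genes within each library, stiff gel (red) left of soft gel (blue), with mean and SD (n = 3) beside the points; each axis starts at 0 and has its own scale. The groups are parted for Cav2 over Cav1 and for Pacsin2 over Ehd2 and overlap in the other 4 ratios.

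Relatives of these genes and genes of caveola turnover did not pass limma's test. The list held 22 genes, of which 20 were measured and 17 tested; 0 passed, the unadjusted p was under 0.05 for 3 (over all tested genes it was for 15.4%), and voom on recovered reads called 1. The median log2 fold change was -0.02, with 7 above 0 and 10 below. It was 0.24 for the 6 tested caveolar members and 0.00135 for all tested genes. The members and lists were chosen with earlier results of these data known, so their medians are a description. Flna, the actin crosslinker filamin A that ties caveolae to stress fibres, was at 190.1 ± 9.55 FPKM in stiff and 159.5 ± 3.41 FPKM in soft gel (log2 fold change 0.25, limma adjusted p = 0.0799) and was the gene that passed with voom (0.24, adjusted p = 0.0355) and with array weights (0.28, adjusted p = 0.0147). Pdgfrb, a growth factor receptor reported in caveolae, was at 120.6 ± 1.75 FPKM in stiff and 126.9 ± 3.58 FPKM in soft gel (limma adjusted p = 0.498). Rab11a, a GTPase of recycling endosomes, was at 54.7 ± 2.62 FPKM in stiff and 55.8 ± 5.77 FPKM in soft gel.

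The paralogues of the coat partners, named here for their family after their values had been seen, did not pass either. Ehd1 was at 25.7 ± 1.38 FPKM in stiff and 24.2 ± 1.88 FPKM in soft gel, Ehd3 at 31.4 ± 2.82 FPKM in stiff and 31.9 ± 2.48 FPKM in soft gel, and Ehd4 at 18.2 ± 0.595 FPKM in stiff and 16.2 ± 0.341 FPKM in soft gel (log2 fold change 0.16, limma adjusted p = 0.238). Pacsin3 was at 19.8 ± 0.726 FPKM in stiff and 20.9 ± 2.02 FPKM in soft gel. Pacsin1 lay below the filter at 0.254 FPKM in stiff and 0.591 FPKM in soft gel. Every stiff library was below every soft one for Pacsin1, on 5 to 22 reads per library. Cavin4, the muscle cavin, also lay below the filter, at 0.577 FPKM in stiff and 0.698 FPKM in soft gel. Dnm1 and Dnm2 encode dynamins, which cut vesicles from the membrane. Dnm1 was at 34.8 ± 1.36 FPKM in stiff and 43.1 ± 4.68 FPKM in soft gel (limma adjusted p = 0.159) and Dnm2 at 39.8 ± 1.02 FPKM in stiff and 42.9 ± 3.32 FPKM in soft gel (limma adjusted p = 0.513). Abl1 had the largest fitted value of the list, 1.00, at 5.55 ± 4.28 FPKM in stiff and 3.02 ± 4.15 FPKM in soft gel, with a spread as large as the levels (limma adjusted p = 0.552).

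Of 19 genes of flotillin domains and the clathrin coat, other ways in which the membrane is organised or taken up, 18 were tested and 1 passed. Stom, which encodes stomatin, a membrane protein of the flotillin superfamily, fell to 21.8 ± 0.724 FPKM in stiff gel, against 28.4 ± 1.22 FPKM in soft gel (log2 fold change -0.37, limma adjusted p = 0.0375). That call was lost without a level filter, without the variance trend, with the replicate number as a block, and when any library other than soft replicate 1 was left out. The unadjusted limma p was under 0.05 for 6 of the 18 genes tested, and over all tested genes it was for 15.4%. For 5 genes all stiff libraries lay below the soft ones and for 1 above, against 10.9% and 11.7% of all tested genes. The list's median was -0.02, with 6 genes above 0 and 12 below. The most abundant were the AP-2 adaptor gene Ap2m1, at 195.9 ± 2.87 FPKM in stiff and 187.2 ± 8.84 FPKM in soft gel, the clathrin light chain gene Clta, at 186.5 ± 10.0 FPKM in stiff and 189.2 ± 11.8 FPKM in soft gel, and Ap2s1, a second adaptor subunit, at 172.3 ± 9.38 FPKM in stiff and 172.4 ± 4.89 FPKM in soft gel. None of these 3 passed.

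Genes whose level followed Cav1 and Cavin1 most closely over the 6 libraries were looked up among those with a mean of at least 5 FPKM, 8881 besides the gene itself. For Cav1 they were Grem1, a secreted BMP antagonist (Pearson r = 0.997 of log2(FPKM + 1)), Pid1 (0.996) and Emd, which encodes the nuclear membrane protein emerin (0.995). For Cavin1 they were LOC100910996, which is uncharacterized (0.999), the mitotic kinase gene Plk1 (0.998) and the matricellular gene Thbs4 (0.996). Of the 8881 genes, 148 exceeded 0.95 with Cav1 and 184 with Cavin1. With 6 libraries in 2 separated groups such values are a description of shared group levels. Grem1 was at 674.5 ± 44.6 FPKM in stiff and 508.7 ± 45.8 FPKM in soft gel (limma adjusted p = 0.0618), and Plk1 at 8.36 ± 0.0954 FPKM in stiff and 4.48 ± 0.393 FPKM in soft gel (limma adjusted p = 0.00816).

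**Figure D4:**
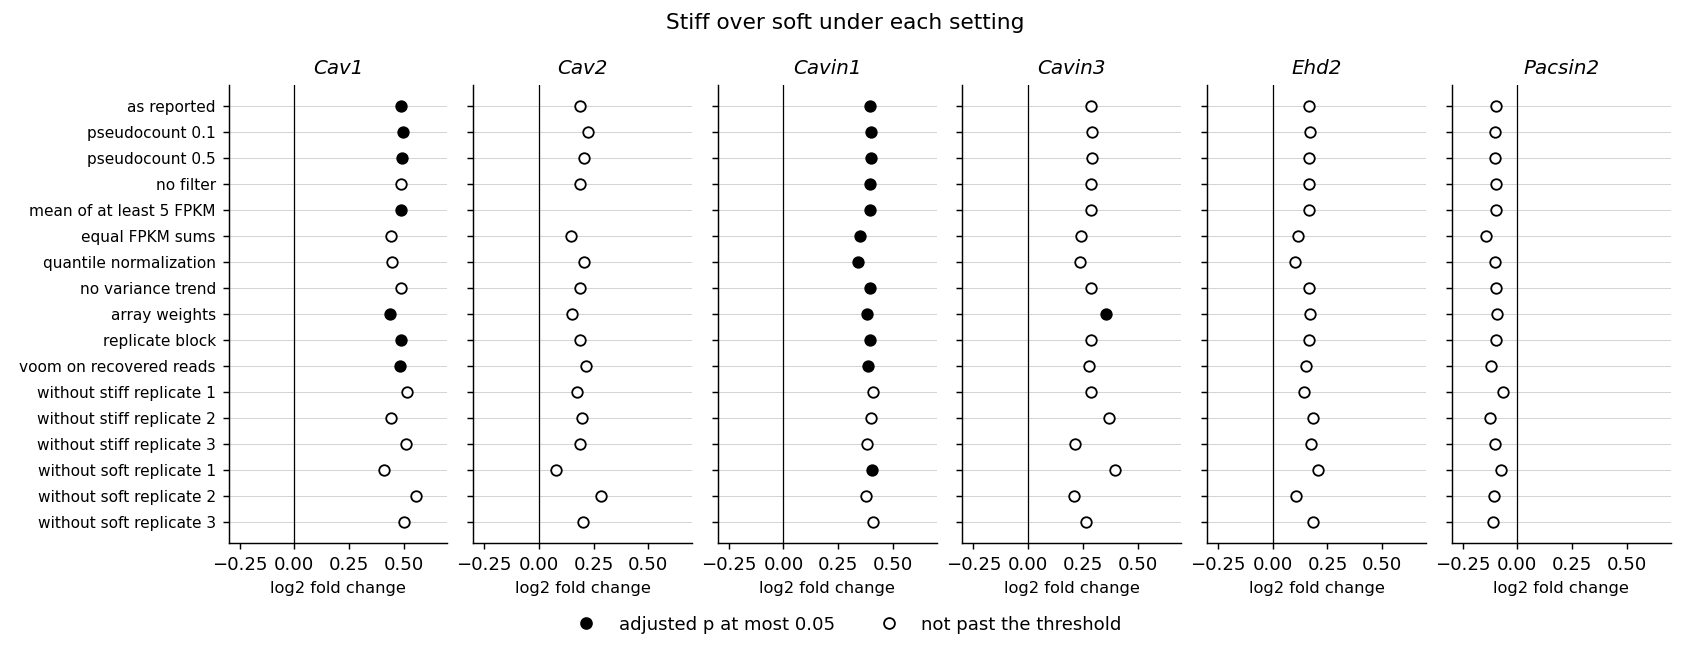
Log2 fold change of stiff over soft gel for each tested member as reported, under 10 alternatives and without each library in turn; filled points passed an adjusted p of 0.05. Cavin1 is filled in all 10 alternatives and Cav1 in 6 of them, and no member crosses 0; Cav2 has no value at a filter of 5 FPKM.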

How the data were processed

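PolyA RNA of rat MSCs in stiff or soft gel was profiled in 6 libraries; per the labels' protocols, cells were taken out of the gel and libraries made with a QIAseq FX single-cell kit. The deposited table gives FPKM and gene lengths. Bowtie 0.12.9, Cufflinks 2.1.1 and HTSeq appear in the submitters' processing notes, with the mouse builds mm10 and GRCm38, although the table holds rat Ensembl identifiers and names no build; gene positions are those of the table. Whether counting used strand, and how reads with several matches were treated, is a step not stated in the sources used here, and genes with close copies are uncertain for that reason. FPKM times length gave whole multiples of 1 step per library for 100% of values (tolerance 0.0001), so reads were recovered for depth and for voom.

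The members and gene lists were chosen with earlier results of these data known. The 12713 genes that averaged 1 FPKM or more were fitted in limma 3.58.1 (R 4.3.3) on log2(FPKM + 1), with group as the only term and an intensity trend; a fold change on this scale understates low genes, and fold values are ratios of mean FPKM. The code was tested on simulated data. No 2 libraries of a group agreed within sampling noise (chi-square per degree of freedom of 3.57 or more over genes). Ratios were compared by exact permutation. Alternatives changed pseudocount (0.1, 0.5), filter, scaling, variance model, weights and unit, added a replicate block and left out each library. The rule for named genes took all members, the called and the 3 most abundant genes of each other list, and the 3 genes most correlated with Cav1 and with Cavin1. Ehd1, Ehd3, Ehd4, Pacsin1, Pacsin3, Cavin4, Dnm1, Dnm2, Abl1, Tes, Met and single marker genes were named after their values were seen. Rab5a, Cd36, Itgam, Pecam1 and Ttn had no row of that name and were not analysed here. Promoter windows are RefSeq's on GRCr8, matched by symbol, and their coordinates are not those of the table.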

Additional observations from a re-analysis of the deposited data

How the results depend on the processing

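Every tested member kept its direction under the 10 alternatives and without each library in turn, apart from Cav2 having no value at a filter of 5 FPKM, and the calls depended on the settings. Of the 2 members that passed, 1 remained, Cavin1, without a level filter, at equal FPKM sums, after quantile normalization and without the variance trend; between 0 and 1 passed when a library was left out. Among the relatives 1 passed with array weights and 1 with voom (Flna both times), and 0 in each fit without a library. Of the flotillin and clathrin list 0 passed without a filter, 0 without the variance trend and 0 with the replicate block, 2 with array weights (Stom and Ap2a2), and 0 to 1 without a library. Over all genes, 182 calls became 92 without a filter, 112 without the variance trend, 105 with the replicate block, 685 with array weights, 317 with voom on recovered reads, and 27 to 159 without a library. The log2 ratio of Cavin2 to Cavin1 differed by -1.22 between stiff and soft gel, and by -0.46 with 1 added to each FPKM, since Cavin2 lies far below 1 FPKM.

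Whether the replicate numbers pair the libraries cannot be settled with 3 libraries per group. Deviations from the group means correlated at 0.0552, 0.116 and -0.0785 for numbers 1, 2 and 3. Stiff replicates 1 and 2 correlated best with the soft replicate of their own number but stiff replicate 3 with soft replicate 1. With the replicate block both Cav1 and Cavin1 had an adjusted p of 0.045, and the differences in log2 ratio were the same by construction. Depth limits Cav3 and Cavin2, which had 1 to 10 reads per library.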
